A study of Solanum lycopersicum with 3 samples.

Results

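Pathogenesis-related (PR) proteins, chitinases, β-1,3-glucanases and their neighbours in defence were examined in ripe fruit of wild type tomato and of a Lycb-1 line. Members were taken by words in the description of each oligo probe, namely pathogenesis-related, chitinase, endo-1,3-beta, 1,3-beta-glucanase, beta-1,3-glucanase, osmotin, thaumatin, defensin, allergen, hevein, harpin and germin. The words selected 79 of 11863 gene probes. Of these, 36 were bright enough to be tested, among 5720 tested probes of the array. The 43 others had a brighter channel under 400 signal units on at least 1 array, and 32 of them stayed under it on every array.

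PR proteins are induced in many plants by pathogens, wounding, ethylene and salicylic acid, and several of them also accumulate during fruit ripening. β-1,3-Glucanases (PR-2) and chitinases (PR-3 and related classes) hydrolyse glucan and chitin, polymers of fungal cell walls, and glucanases also act on callose, a glucan of the plant's own walls. PR-5 proteins (osmotins and thaumatin-like proteins) disturb fungal membranes, PR-10 proteins are small intracellular proteins, and defensins are small cysteine-rich peptides.

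Both groups were fruit of the tomato cultivar Zhongshu No. 5 grown in a glasshouse. The Lycb-1 group carried a citrus lycopene β-cyclase gene under the constitutive CaMV 35S promoter and the kanamycin resistance gene nptII, while the wild type carried neither. Its plants descended from 1 primary transformant, so effects of the transgene, of its insertion and of the line cannot be told apart. Each of the 3 two-colour TOM2 long-oligo arrays compared a pool of Lycb-1 with a pool of wild type fruit, with seeds removed, 10 days post breaker (the first visible colour change), each pool holding 4 to 5 fruits from 3 plants. Lycb-1 RNA was labelled with Cy5 and wild type RNA with Cy3 on every array, with 0 dye exchanges, so a dye effect and the genotype cannot be told apart for any probe. On each array the log2 ratio of Lycb-1 over wild type was taken after normalisation, and a negative value means a lower Lycb-1 signal.

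Between 6289 and 6855 spots per array reached 400 units in a channel and were not marked as bad, and in empty spots the 99th percentile of signal was 34 units or less. Over all tested probes the median of the mean log2 ratio was -0.01. Seed storage protein probes, 3 in all, were not testable and reached at most 438 units, while 28 ripe fruit marker probes (polygalacturonase, E4, E8, phytoene synthase 1 and others) were tested. Their median log2 ratio was 0.54, with 9 below 0. Of the 28 probes, 16 were higher on every array (20.4% of all tested probes) and 3 lower (21.3%). The words also took in proteins that are not themselves these markers. They were a polygalacturonase inhibiting protein (SGN-U222669, mean -1.16) and E4/E8 binding protein-1 (SGN-U217693, -0.10, and SGN-U216046, -0.05), all among the 9 below 0. Summed raw signals of these markers were between 225328 and 267997 in the wild type and between 686227 and 814605 in Lycb-1. Such sums, here and below, are not normalised between the dyes and rest mostly on the brightest probes, so they are no measure of the median ratio.

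Most tested PR probes gave lower mean signals in Lycb-1 than in wild type fruit, with the lowest ratios in the basic β-1,3-glucanases, the PR-10 probes, a thaumatin-like protein and the basic endochitinases. Of the 36 tested members, 28 had a mean log2 ratio below 0 (50.9% of all tested probes) and 8 above it, with a median of -0.75. With median centring, which moved the median of all tested probes to 0.15, the members split into 24 below and 12 above 0, and all tested probes into 2108 below and 3612 above. The 36 exclude members that were dim, and a member could pass through the group in which it was bright. None of them had an adjusted p under 0.05 in limma, against 3 of all tested probes (0.0524%). At an unadjusted p under 0.05 in limma, 17 members were called (15.4% of all tested probes), 16 lower (8.62% of all tested probes) and 1 higher (6.82%). On all 3 arrays 15 members were lower (21.3% of all tested probes) and 3 were higher (20.4%). A mean difference of 2-fold or more was found for 13 members with lower ratios (3.76%) and 1 with a higher ratio (2.52%). Without replicate 1 the unadjusted count in limma was 11 members, and over all tested probes it dropped from 883 to 530. An ordinary one-sample test on all 3 arrays, which uses no moderated SE, called 3 of the 36 members at this threshold. Over all tested probes it called 613. The count of 17 members therefore depended on the moderated SEs.

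**Figure D1:**
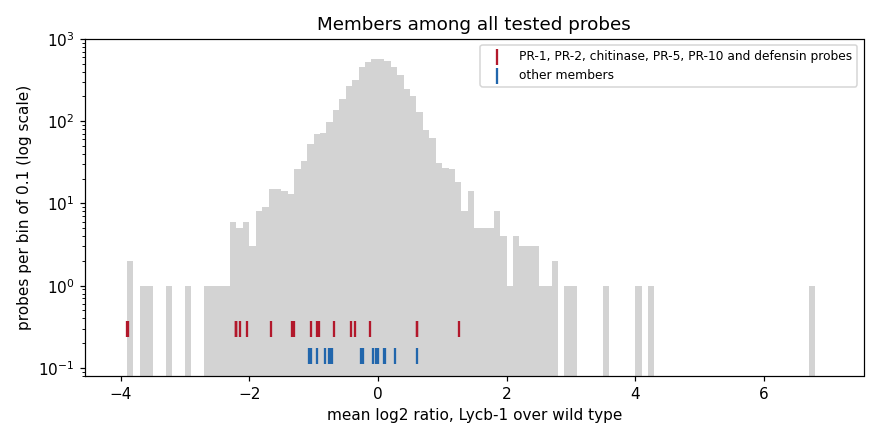
Mean log2 ratio of Lycb-1 over wild type for the 5720 tested probes (grey, probes per bin on a log axis), with ticks for the 20 tested PR-1, PR-2, chitinase, PR-5, PR-10 and defensin probes (red) and the 16 other tested members (blue). The red ticks reach from -3.90 to 1.26, and 17 of the 20 are below 0.

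The 20 probes of the PR-1, PR-2, chitinase, PR-5, PR-10 and defensin families had a median log2 ratio of -1.17, with 17 below 0, and the 16 remaining members had a median of -0.25, with 11 below 0. The difference between these sets was not tested. The ratios also varied more over the arrays than those of most probes: the median range over the 3 arrays was 1.40 log2 units for members against 0.69 for all tested probes, and 11 of 36 members (30.6%) ranged over 2 units or more, against 7.88% of all tested probes. In the normalised signals, 10 members had every Lycb-1 value below every wild type value (8.81% of all tested probes), and 1 had every Lycb-1 value above (7.57%). The other 25 overlapped between the groups.

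**Figure D2:**
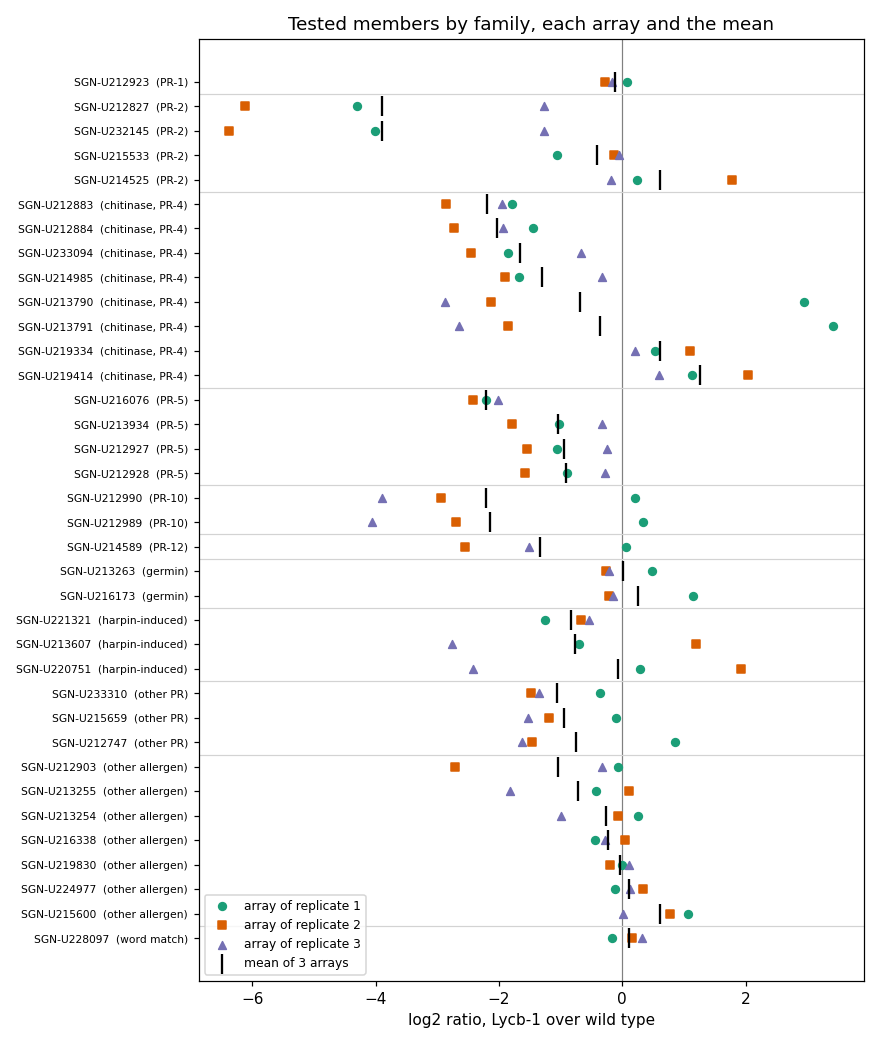
Log2 ratio of Lycb-1 over wild type for each of the 36 tested members, ordered by family, with 1 symbol per array and a bar at the mean of 3 arrays. The basic glucanases SGN-U212827 and SGN-U232145 lie farthest to the left, and their values from replicate 3 (-1.27 and -1.28) lie far from those of the other arrays.

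Among the PR-2 glucanases, 4 of 14 members were tested, and the basic forms stood at the very bottom of the array. The basic β-1,3-glucanase SGN-U212827 had normalised wild type signals of 4671, 47812 and 19761 on the arrays of replicates 1, 2 and 3. Its Lycb-1 signals were 236, 685 and 8206. Lycb-1 was lower on every array, but the groups overlapped, since the Lycb-1 signal of replicate 3 exceeded the wild type signal of replicate 1. Expressed within arrays, the wild type signal was 19.8, 69.8 and 2.41 times that of Lycb-1. The mean log2 ratio of -3.90 was the lowest of 5720 and had a SE of 0.91 (adjusted p = 0.229, limma), and it was -5.22 without replicate 3 and -2.79 without replicate 2. On replicate 2 the raw wild type signal lay at 84.4% of the highest Cy3 signal of that array. The wild type signals themselves differed 10.2-fold between pools and the Lycb-1 signals 34.7-fold.

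A second probe with the same description, SGN-U232145, gave wild type signals of 1258, 15389 and 5869 and Lycb-1 signals of 77.7, 185 and 2425. Its mean log2 ratio of -3.89 (SE 0.94, limma adjusted p = 0.233) was the next lowest, and on no array did it differ from SGN-U212827 by more than 0.29. Lycb-1 was under 400 units on 2 of its 3 arrays. Both probes may bind the same transcript and are not independent. Each still counts as 1 member in the counts and medians given here, as do other probes that may share a transcript. Their listed Arabidopsis hits differed, AT3G57270 for SGN-U212827 and AT4G16260 for SGN-U232145.

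The remaining tested PR-2 probes, both described as putative glucan endo-1,3-β-glucosidases, did not share this shift. SGN-U215533 had a mean of -0.42 (SE 0.27), with -1.06 on replicate 1 and -0.14 and -0.05 on the others. For SGN-U214525 the mean was 0.61 (SE 0.41) and rested on replicate 2, at 1.78, with 0.24 and -0.18 on the others. The acidic glucanase A, the other well-known tomato isoform, was represented by 3 probes, none of which exceeded 50 units in either genotype. A further tomato glucanase, SGN-U214527, reached 591 units in the wild type of replicate 3 against 2 units in Lycb-1, but it was at 81 units or less in the other wild type pools.

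**Figure D3:**
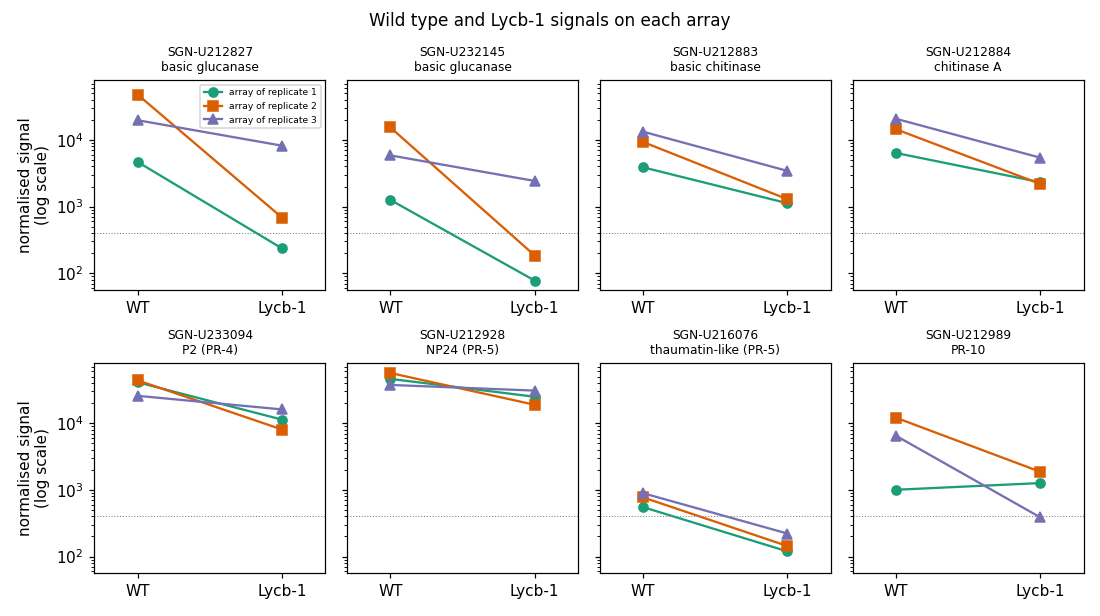
Normalised signal (log axis) of 8 members in wild type (WT) and Lycb-1 fruit, with a line joining both channels of each array and a dotted line at 400 units. Lines of all arrays slope down for the glucanases, chitinases, P2, NP24 and SGN-U216076, while for the PR-10 probe SGN-U212989 the array of replicate 1 slopes up, from 1004 to 1265.

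Chitinases and the PR-4 protein P2 were represented by 16 probes, of which 8 were tested. The basic endochitinases were lower on every array. SGN-U212883, a basic endochitinase, had wild type signals of 3885, 9311 and 13294 and Lycb-1 signals of 1124, 1289 and 3431. For endochitinase A (SGN-U212884) they were 6380, 14490 and 20798 in the wild type and 2326, 2193 and 5424 in Lycb-1. In both, the highest Lycb-1 pool lay below the lowest wild type pool. The mean log2 ratios were -2.20 for SGN-U212883 (SE 0.27, limma adjusted p = 0.111) and -2.04 for SGN-U212884 (SE 0.29, limma adjusted p = 0.144), or 4.59-fold and 4.11-fold lower signals. A further basic endochitinase probe, SGN-U212881, was too dim on replicate 1 to be tested and gave raw wild type signals of 386, 1273 and 1103 against 103, 161 and 435 in Lycb-1.

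P2 was one of the brightest members. SGN-U233094 had wild type signals of 41081, 43881 and 25747 and Lycb-1 signals of 11312, 8044 and 16093. SGN-U214985, with the same description, had 36430, 31705 and 29796 against 11423, 8515 and 23668. The genotypes did not overlap at either probe, yet the within-array difference on replicate 3 (-0.68 and -0.33) was much smaller than on the other arrays (between -2.45 and -1.67). Mean log2 ratios were -1.66 (SE 0.37, limma adjusted p = 0.218) for SGN-U233094 and -1.30 (SE 0.35, limma adjusted p = 0.249) for SGN-U214985.

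The acidic endochitinases changed direction between arrays. SGN-U213791 had Lycb-1 signals of 1962, 707 and 169 and wild type signals of 183, 2547 and 1065, which gave log2 ratios of 3.42, -1.85 and -2.65. Its companion SGN-U213790 gave 2.95, -2.12 and -2.88. Replicate 1 was thus far above 0 and the other arrays far below it, and the means of -0.36 (SE 1.21) and -0.69 (SE 1.16) describe none of the 3 arrays. The dimmer channel was often under 400 raw units. For SGN-U213790 it was at 75 (wild type), 191 and 154 (both Lycb-1) on replicates 1, 2 and 3. For SGN-U213791 it was at 180 (wild type) on replicate 1 and 194 (Lycb-1) on replicate 3. The sizes of these ratios are therefore uncertain. The wild type signal of SGN-U213791 varied 13.9-fold between pools. With replicate 1 left out, the median of the chitinase family moved from -0.99 to -1.91.

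Mean ratios above 0 were found, among tested chitinase members, for a pair of probes described as putative chitinases by likeness to a castor bean protein. SGN-U219414 had Lycb-1 signals of 5782, 5901 and 2859 and wild type signals of 2640, 1434 and 1895, without overlap, and a mean log2 ratio of 1.26 (SE 0.32, limma adjusted p = 0.242). SGN-U219334 had a mean of 0.61 (SE 0.24, limma adjusted p = 0.325) with overlapping groups. The Arabidopsis hits listed for them, AT4G01050 and AT3G25480, are not the hits of the basic and acidic endochitinases (AT3G12500), and a probe that shares the first of these hits, SGN-U219415, is described as a hydroxyproline-rich glycoprotein. Without this pair, a choice made after their values were seen, the median of the chitinase family was -1.48 over 6 probes. Class IV chitinases, endochitinase 3 and an extracellular class I chitinase were at 79 units or less on every array.

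All 4 PR-5 probes were tested, and on each of the 3 arrays every one had a negative ratio. The thaumatin-like protein SGN-U216076, described after a Prunus allergen, had the steadiest shift of any member with a difference over 2-fold: -2.21, -2.43 and -2.01. Wild type signals were 551, 771 and 891, and Lycb-1 signals were 119, 144 and 221, all under 400 units in raw signal as well. Its mean log2 ratio was -2.21 with a SE of 0.19 and the lowest adjusted p of the members, 0.0743 in limma. Since Lycb-1 was dim on every array, the difference is stated as at least 1.98-fold lower, the wild type mean being set against the lowest normalised Lycb-1 signal among probes with 400 raw units or more on each array. With global loess or with median centring in place of the print-tip loess, its adjusted p was 0.0449 and 0.0327.

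The osmotin-like probes had smaller mean differences, and NP24 and SGN-U212927 were far brighter. NP24 (SGN-U212928), a salt-induced osmotin of tomato, had wild type signals of 46232, 56600 and 37520 and Lycb-1 signals of 24928, 18887 and 30833. In these normalised signals the groups did not overlap, and the log2 ratios were -0.89, -1.58 and -0.28 with a mean of -0.92 (SE 0.29, limma adjusted p = 0.282). On replicate 3, however, the raw signal was higher in Lycb-1 (36115) than in the wild type (28073). The negative ratio on that array therefore rests on the normalisation. The mean was -1.42 with global loess and -0.70 with median centring. On replicate 2 the raw wild type signal was at 98.3% of the highest Cy3 signal of that array, close to the top of the scale. SGN-U212927 differed from NP24 by at most 0.16 on any array, with a mean of -0.95 (SE 0.30). Its raw signal on replicate 3 was likewise higher in Lycb-1, at 21567 against 20819. SGN-U213934 had a mean of -1.05 (SE 0.32) with Lycb-1 under 400 units on 2 arrays. The 3 osmotin-like probes may share target transcripts and were not independent.

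The PR-10 probes also separated replicate 1 from the other arrays. SGN-U212989, described as PR-10, had wild type signals of 1004, 12096 and 6493 and Lycb-1 signals of 1265, 1869 and 388. SGN-U212990, similar to the PR-10 protein STH-2, had 525, 6503 and 4063 against 609, 848 and 273. In both, wild type replicate 1 was as low as the Lycb-1 pools, so the genotypes overlapped, and Lycb-1 was lower on replicates 2 and 3 only. The mean log2 ratios were -2.14 (SE 0.84, limma adjusted p = 0.324) for SGN-U212989 and -2.21 (SE 0.80, limma adjusted p = 0.299) for SGN-U212990. Without replicate 1 these were -3.38 and -3.42, and without replicate 3 -1.18 and -1.36. The untested STH-2 probe SGN-U214460 was likewise low in the first wild type pool, with raw values of 16, 754 and 606 in the wild type and 24, 35 and 20 in Lycb-1.

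The only defensin (PR-12) probe, SGN-U214589, gave wild type signals of 4239, 13206 and 5208 and Lycb-1 signals of 4413, 2255 and 1818. Here too replicate 1 showed no difference (0.06), whereas replicates 2 and 3 were at -2.55 and -1.52, and the mean was -1.34 (SE 0.51, limma adjusted p = 0.316).

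PR-1 proteins, the best-known markers of the salicylic acid response in leaves, were tested for P4 alone (SGN-U212923). Its wild type signals of 5338, 6548 and 6445 and Lycb-1 signals of 5640, 5408 and 5739 overlapped, and the log2 ratios were 0.08, -0.28 and -0.17. With a mean of -0.12 (0.18 with median centring), the 95% confidence interval ran from -0.60 to 0.36. The ethylene-induced protein P6 (SGN-U212922) was too dim in the first wild type pool to be tested, with raw wild type signals of 299, 726 and 1247 against 95, 210 and 90 in Lycb-1, which did not overlap. PR-1A1 (SGN-U214259) was bright in 1 pool only, the wild type of replicate 3, at 1378 units.

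**Figure D4:**
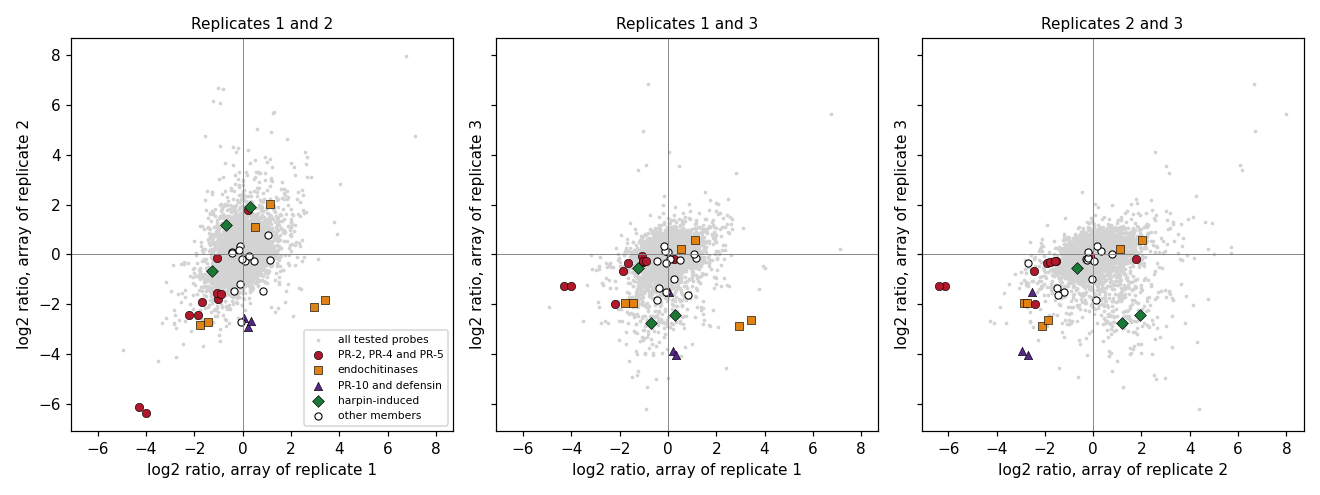
Log2 ratio of Lycb-1 over wild type on one array against another, for all tested probes (grey) and the 36 tested members by family (coloured symbols, and open circles for the rest). The acidic endochitinases (orange squares at 2.95 and 3.42 on replicate 1) and the PR-10 probes (violet triangles) leave the diagonal in both comparisons with replicate 1, and a pair of harpin-induced probes (green) in both with replicate 3.

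Members thus fell into several profiles over the arrays, and the grouping was made after their values were seen. Of the 36, 17 had their lowest ratio on replicate 2, 14 on replicate 3 and 5 on replicate 1. The basic glucanases, both P2 probes and the osmotin-like probes were lowest on replicate 2 and nearest to 0 on replicate 3. PR-10, the acidic endochitinases and the defensin were above 0 on replicate 1 and below it on the others. Across the 36 probes, Pearson's correlation of the log2 ratios was 0.54 between replicates 1 and 2, 0.37 between 2 and 3 and -0.10 between 1 and 3, against 0.38, 0.16 and 0.30 over all tested probes. These are correlations across probes, some of which share target transcripts, and each array holds both pools of a replicate.

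Harpin-induced (NDR1/HIN1-like) proteins are membrane-associated proteins linked to defence in Arabidopsis and tobacco. SGN-U221321 was lower in Lycb-1 on every array, at -1.26, -0.68 and -0.54, with a mean of -0.83 (SE 0.22, limma adjusted p = 0.249) and no overlap. SGN-U213607 had ratios of -0.71, 1.19 and -2.76, and SGN-U220751 had 0.29, 1.92 and -2.42. Lycb-1 was thus above the wild type on replicate 2 and far below it on replicate 3 at both. For SGN-U213607 the wild type signals were 14555, 3693 and 16965 and those of Lycb-1 were 8922, 8423 and 2501.

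Germins and germin-like proteins, extracellular proteins of the cupin fold, were near 0. SGN-U213263 had a mean of 0.00 (95% confidence interval from -0.59 to 0.60, and -0.036 with median centring), and SGN-U216173 one of 0.26 (SE 0.33), from 1.15 on replicate 1 to -0.21 on replicate 2. The 5 other germin probes were not tested. SGN-U228097, an RNA-degrading enzyme that entered through the word germination in its description, is no PR protein and had a mean of 0.10 (SE 0.20).

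Of the probes called pathogenesis-related without a class, SGN-U233310 had wild type signals of 1290, 2134 and 1830 and Lycb-1 signals of 1008, 764 and 714. These did not overlap, and the mean log2 ratio was -1.06 (SE 0.29, limma adjusted p = 0.246). SGN-U215659, with the same description and the same Arabidopsis hit, had a mean of -0.94 (SE 0.32, limma adjusted p = 0.290) and Lycb-1 under 400 units on 2 arrays. The glutathione S-transferase SGN-U212747, an enzyme of detoxification that is also called a pathogenesis-related protein, followed the PR-10 profile, at 0.85, -1.46 and -1.63. PTI5 and PTI6, transcription factors that bind PR gene promoters, were not testable. PTI5 (SGN-U217388) had raw signals of 61, 154 and 262 in the wild type and 56, 55 and 15 in Lycb-1.

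The probes named as allergens hold unrelated proteins, and 7 of 16 were tested, with a median of -0.23. The minor allergen β-fructofuranosidase (SGN-U212903), the vacuolar invertase that splits sucrose in ripening fruit, had wild type signals of 1653, 3173 and 3702 and Lycb-1 signals of 1567, 485 and 2945. Its ratio was -2.71 on replicate 2 but -0.08 and -0.33 on the others (mean -1.04, SE 0.56, limma adjusted p = 0.418). The allergen-like probes SGN-U213255 and SGN-U213254 had means of -0.71 (SE 0.40) and -0.27 (SE 0.30), each lowest on replicate 3, and median centring turned the mean of SGN-U213254 to 0.23. The other 4 had means between -0.23 and 0.61, and SGN-U215600 was the highest of them.

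The other PR classes, collected by description and not counted among the members, were mixed. Peroxidases (PR-9) had a median of -0.42 over 11 tested probes. At an unadjusted p under 0.05 in limma, 5 were lower (8.62% of all tested probes) and 0 higher (6.82%). The word also took in transcripts of other function, such as OCP3, a transcription factor. A pair of peroxidase 4 probes had means of -3.50 (SGN-U213352, SE 0.34, limma adjusted p = 0.0749) and -3.21 (SGN-U213351, SE 0.34, limma adjusted p = 0.0885). Lycb-1 was under 400 units on all 3 arrays at both, so that the differences are stated as at least 6.14-fold and at least 8.34-fold lower. The suberization-associated peroxidase SGN-U215393 had a mean of -1.87. Of 13 subtilisin probes (PR-7), 2 were tested. The subtilisin-like protease P69D (SGN-U214665) had ratios of -3.16, -2.55 and -0.60, while SGN-U218271 had a mean of -0.27 (SE 0.63).

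Proteinase inhibitors (PR-6), which block digestive enzymes of herbivores, had a median of 0.07 over 11 tested probes. In Lycb-1, 5 were at least 2-fold higher (2.52% of all tested probes) and 1 at least 2-fold lower (3.76%). The lower probe, SGN-U218425, is described as a protein of the protease inhibitor, seed storage and lipid transfer family. It also entered the PR-14 list below, as did SGN-U221589. Proteinase inhibitor I (SGN-U213613) was at -0.81 on replicate 1 but at 6.66 and 6.86 on replicates 2 and 3, and the wound-induced inhibitor II (AY129402) was at -1.02, 6.68 and 4.95. Their ratios therefore changed direction between the same arrays as those of the acidic endochitinases and PR-10, with opposite sign. Their means of 4.24 (SE 1.60) and 3.54 (SE 1.48) had limma adjusted p-values of 0.313 and 0.340. On replicate 3 the raw Lycb-1 signals of all 28 PR-6 probes summed to 38802. A ratio of 6.86 there thus leaves the wild type channel of SGN-U213613 near or under 400 units, and its size is uncertain.

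Lipid transfer proteins (PR-14), which are strongly expressed in the epidermis, had a median of -1.17 over 11 tested probes. Their median by array was 0.14 on replicate 1, -1.51 on replicate 2 and -2.41 on replicate 3. The words also took in a putative glycolipid transfer protein (SGN-U214784, mean 0.12), which is not of PR-14. The wider list of 13 tested epidermis and cuticle probes, which includes all 11, had a median of -1.16. It adds only CER6 (SGN-U215204, mean -0.91, SE 0.30) and a wax synthase (SGN-U223487, mean 0.09, SE 0.29). Its values are therefore mostly those of the lipid transfer probes again. Of the 13, 5 were lower on every array (21.3% of all tested probes) and 0 higher (20.4%). The summed raw signals of this wider list were between 62964 and 125335 in the wild type and between 41898 and 67655 in Lycb-1. On replicate 1 the sum was higher in Lycb-1 (67655 against 62964), and on replicates 2 and 3 it was lower. Probes of green tissue, for chlorophyll a/b-binding proteins and the small subunit of Rubisco, had a median of -1.22 over 27 tested probes. Of the 27, 19 were lower on every array (21.3% of all tested probes) and 3 higher (20.4%). Their medians by array were -0.81, -0.64 and -2.10. The summed raw signals of the green tissue probes were between 61299 and 104794 in the wild type and between 40383 and 81586 in Lycb-1. Here too the sum was higher in Lycb-1 on replicate 1 (73956 against 61299) and lower on replicates 2 and 3. A lower share of such cells and less RNA per cell cannot be told apart in pooled fruit, and the part of these differences in the PR results was not tested. Defence signalling genes had a median of -0.04 over 17 tested probes. Their means ran from -1.50 (SGN-U214561, an elicitor-inducible protein) to 2.09 (SGN-U216160, salicylic acid-binding protein 2). At an unadjusted p under 0.05 in limma, 3 were higher (6.82% of all tested probes) and 1 lower (8.62%). Ethylene-responsive factors had a median of -0.33 over 13 tested probes, with means from -2.35 to 0.73. At that threshold 4 were lower (8.62%) and 1 higher (6.82%). For callose synthase, 1 probe was tested, at 0.00.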

How the data were processed

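The authors amplified 5 µg of total RNA per pool, hybridised Cy5-labelled Lycb-1 and Cy3-labelled wild type cDNA, and deposited background-corrected spot intensity values, a normalised ratio and its log2 for each of the 3 arrays. The deposited intensity values were normalised here within each array by print-tip loess (limma 3.58.1, R 4.3.3), as in the methods of the study. Spots were kept where the brighter channel was 400 or more on all arrays, spots of a probe were averaged, and lmFit and eBayes tested the mean against 0, two-sided, with Benjamini-Hochberg adjustment over 5720 probes. SEs are moderated, with 2 residual and 3.06 prior degrees of freedom. The normalised signal of a channel is its intensity after that loess and Aquantile scaling of the average signal between arrays, in scanner units. The ratio within an array pairs both pools. Whether the pools came from separate plantings is not given in the sources used here. Precision is limited by having 3 arrays. The code was tested on simulated data. Figures used matplotlib 3.10.9.

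The members and lists were chosen with earlier results of these data known. Named members were the 2 largest mean ratios and the brightest wild type probe of each family and those at least 2-fold changed with an unadjusted p under 0.05 and the same direction on 3 arrays; others were described after their values were seen. Gene symbols are those of the deposited descriptions, which can be old.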

Additional observations from a re-analysis of the deposited data

How the results depend on the processing

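The count of members with an adjusted p under 0.05 was 0 in limma (17 at an unadjusted p under 0.05), 1 with global loess and 1 with median centring (SGN-U216076 in both). Over all probes the count of 3 became 0 with the authors' ratio, 9 with global loess, 17 with median centring and 0 when dim spots were kept. It was 1 when each channel had to reach 400, 0 with an ordinary one-sample test, and between 0 and 1 with a replicate left out. A SAM-type score of 2 or more in size took 6 members, all of them lower, and 176 of all tested probes. That is a cut on the score alone, without an adjusted p-value, so these counts are not comparable with the others. Median centring moved the median of all probes to 0.15, the median of the other allergens to 0.10, that of PR-1 (P4, SGN-U212923) to 0.18 and that of SGN-U213254 to 0.23. Without the filter the PR-2 median was -0.46 over 11 probes and the PR-1 median -1.25 over 4, and when each channel had to reach 400 the PR-2 median was 0.10 over 2 probes, since the basic glucanases leave the table. The chitinase median was between -1.91 (without replicate 1) and -0.48 with a replicate left out. Some means changed sign: SGN-U213263 to -0.039 with global loess, -0.036 with median centring, and between -0.24 and 0.13 with a replicate left out. Left-out replicates gave ranges from -0.18 to 0.50 for SGN-U216173, from -0.53 to 0.10 for SGN-U213254, from -1.73 to 0.24 for SGN-U213607 and from -0.0079 to 0.24 for SGN-U228097. The cause of these shifts was not tested. Members below 0 numbered between 24 and 30 of 36 over the normalisations and left-out replicates. At an unadjusted p under 0.05, the ordinary one-sample test called 3 members, against 17 in limma. Dim signals limit the untested members, and 43 of 79 have no ratio here.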
